A study of Mus musculus with 5 samples.

Results

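Platelets and the megakaryocytes that shed them were followed in whole mouse lung through 7 genes, Pf4, Ppbp, Itga2b, Clec1b, Gp9, Gp5 and Gp1ba, chosen by name. Of these, 6 had a probe set that the platform annotation assigns to that gene alone, out of 12393 genes with such a probe set. Each of the 6 had a single probe set, so no second probe set was at hand as a check, and Gp1ba was not analysed here.

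The study compared lungs of mice with raised right ventricular pressure of separate origins, with 1 array of pooled RNA for each of 5 conditions. The induced pool came from SM22-tet-BMPR2delx4+ mice given doxycycline, in which the smooth muscle promoter SM22 drives a doxycycline-dependent activator and the transgene is a mutant form of the bone morphogenetic protein receptor BMPR2. Its right ventricular pressure was 50 ± 8 mmHg, as was that of FVB/N mice made hypoxic for 4 weeks and aged 8 weeks. The pools at 30 ± 3 mmHg were SM22-tet-BMPR2delx4+ mice without doxycycline (uninduced), SM22-rtTA mice on doxycycline, which carry the activator without the receptor transgene, and wild-type FVB/N mice aged 8 weeks. For the 3 transgenic pools a time of 8 weeks is given too, which may be age or treatment, and the number of animals in a pool and the kind of error after each pressure are not stated. There are no replicate arrays, so no difference between pools was tested and no p-value is given.

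Platelets are small fragments without a nucleus that megakaryocytes release into the blood, and they carry messenger RNA made in the megakaryocyte. In mice, megakaryocytes also sit in the lung's vessels and release platelets there. Platelets bind to damaged vessel walls through the GPIb-IX-V complex, bind one another through the integrin of Itga2b and Itgb3, and release chemokines from their alpha granules. In whole lung RNA, fewer platelets or megakaryocytes and less RNA per cell cannot be told apart.

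The sequence upstream of the start of the genes was taken from RefSeq on GRCm38.p6, where all 7 genes matched an entry. The 250 bases before the start are shown for 4 genes: Pf4 and Itga2b because they were above the noise floor in every pool, Clec1b because it had the largest ratio of the induced to the uninduced pool, and Gp5 because its pattern stood apart from the others. Capitals mark matches to AGATAA or TGATAA (bound by GATA factors), AGGAAG (ETS factors) and TGTGGT (RUNX factors), searched on both strands. These families are known to act in megakaryocytes.
Pf4, chr5:90772185-90772434, plus strand: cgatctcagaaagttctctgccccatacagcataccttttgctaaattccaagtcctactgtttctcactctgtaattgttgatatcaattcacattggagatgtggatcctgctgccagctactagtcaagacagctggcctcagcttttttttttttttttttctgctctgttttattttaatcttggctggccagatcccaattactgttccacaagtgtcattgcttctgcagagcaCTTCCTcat
Itga2b, chr11:102469884-102470133, minus strand: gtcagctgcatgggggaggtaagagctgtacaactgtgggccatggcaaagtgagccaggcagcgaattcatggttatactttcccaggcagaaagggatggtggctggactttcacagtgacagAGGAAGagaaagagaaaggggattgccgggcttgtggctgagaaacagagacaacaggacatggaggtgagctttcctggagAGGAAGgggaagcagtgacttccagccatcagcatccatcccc
Clec1b, chr6:129397047-129397296, plus strand: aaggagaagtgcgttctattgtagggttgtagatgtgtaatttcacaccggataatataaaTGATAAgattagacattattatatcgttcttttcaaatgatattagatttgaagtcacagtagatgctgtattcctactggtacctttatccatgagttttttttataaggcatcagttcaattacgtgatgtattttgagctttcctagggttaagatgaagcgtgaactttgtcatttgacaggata
Gp5, chr16:30310782-30311031, minus strand: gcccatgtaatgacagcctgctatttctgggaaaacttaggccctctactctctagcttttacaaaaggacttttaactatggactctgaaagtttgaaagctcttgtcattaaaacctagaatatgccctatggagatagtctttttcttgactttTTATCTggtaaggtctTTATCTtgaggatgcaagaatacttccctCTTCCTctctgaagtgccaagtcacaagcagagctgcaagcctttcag
A GATA match stood in 3 of the 7 promoters (Clec1b, Gp5 and Gp1ba), against 16.6% of the 32851 promoters in the table. An ETS match stood in 5 of 7 (Pf4, Itga2b, Gp9, Gp5 and Gp1ba), against 29.5%, and a RUNX match in Gp9 alone, against 14.0%. No match to any of these letters stood in the 250 bases before Ppbp, which lies next to Pf4 on chromosome 5. No matches overlapped, and a match describes letters only and is neither a bound site nor a cause of the levels below.

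Levels are scaled intensities, that is, the deposited linear intensities after the arrays were brought to a common median over brighter probe sets. Values at or under 276, the middle of all scaled values, are within the noise floor and have no order among themselves. A gene above the floor in at least 1 pool is called measured, which held for 8590 genes and for all 6 genes described here. To be called higher, a gene had to exceed its control by 1.5-fold or more and lie over the floor and over each of the 3 pools at normal pressure, and lower calls mirrored this. Where the transgenic controls were the comparison, only those 2 pools set the range, and between the transgenic controls fold and floor alone counted.

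The arrays differed in markers of other tissues, and this touches every comparison below. Lung transcripts were high in all pools, with surfactant protein C (Sftpc) between 10706 and 13366. Kidney tubule markers summed to 95621 in wild type and to between 7859 and 11875 in the other 4 pools, with 18 of 19 highest in wild type, where 24.9% of measured genes were. Skeletal muscle markers summed to 90076 in the induced pool and 23881 in hypoxia, with 6388 to 8910 at normal pressure. Squamous epithelial markers summed to 16776 in the induced pool and 26759 in hypoxia, against 2046 to 2815 in the others. The part of these tissues in the levels of platelet genes was not tested.

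Both platelet chemokine genes were above the noise floor in all 5 pools. Pf4 encodes platelet factor 4, a chemokine of the alpha granule that binds heparin. Its scaled intensity was 1718 in the induced pool and 920 in the hypoxic pool, against 1134 in the uninduced, 1337 in the SM22-rtTA and 586 in the wild-type pool. The induced pool was the highest, wild type the lowest, and hypoxia lay between wild type and both transgenic controls. Ppbp encodes pro-platelet basic protein, the precursor of a chemokine that attracts neutrophils. It was at 1930 in the induced pool and 814 in hypoxia, against 1275 in the uninduced, 1200 in the SM22-rtTA and 378 in the wild-type pool. The order was that of Pf4 except that the 2 transgenic controls changed places. From the highest to the lowest pool Ppbp spanned 5.11-fold, the widest measured range of the 6 genes, and Pf4 2.93-fold.

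Itga2b encodes integrin alpha IIb, the subunit of the fibrinogen receptor that marks the megakaryocyte lineage. It was at 964 in the induced pool and 660 in hypoxia, against 640 in the uninduced, 552 in the SM22-rtTA and 403 in the wild-type pool. The induced pool was again the highest and wild type the lowest, while hypoxia lay level with the uninduced pool, 1.11-fold above the mean of the transgenic controls. Clec1b encodes a platelet receptor for podoplanin, a membrane protein of alveolar type 1 and lymphatic endothelial cells. It was at 570 in the induced pool and at 183 in the hypoxic pool, against 327 in the uninduced, 369 in the SM22-rtTA and 119 in the wild-type pool. It was thus above the floor in the 3 transgenic pools and within it in both hypoxia and wild type.

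Gp9 and Gp5 encode subunits of the GPIb-IX-V complex, the platelet receptor for von Willebrand factor. Gp9 was at 383 in the induced pool and 223 in hypoxia, against 254 in the uninduced, 298 in the SM22-rtTA and 98.6 in the wild-type pool, so that it was above the floor in the induced and SM22-rtTA pools. Gp5 was at 315 in the induced pool and 360 in hypoxia, against 241 in the uninduced, 377 in the SM22-rtTA and 292 in the wild-type pool. Gp5 did not follow the other genes: SM22-rtTA was its highest pool, the uninduced pool the lowest, and no pool was far above the floor. The induced pool was the highest for 5 of the 6 genes, against 19.9% of all measured genes. For the same 5 genes wild type was the lowest pool or level with the lowest at the floor, against 35.3% of measured genes, and both conditions were met by 10.9% of measured genes.

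**Figure D1:**
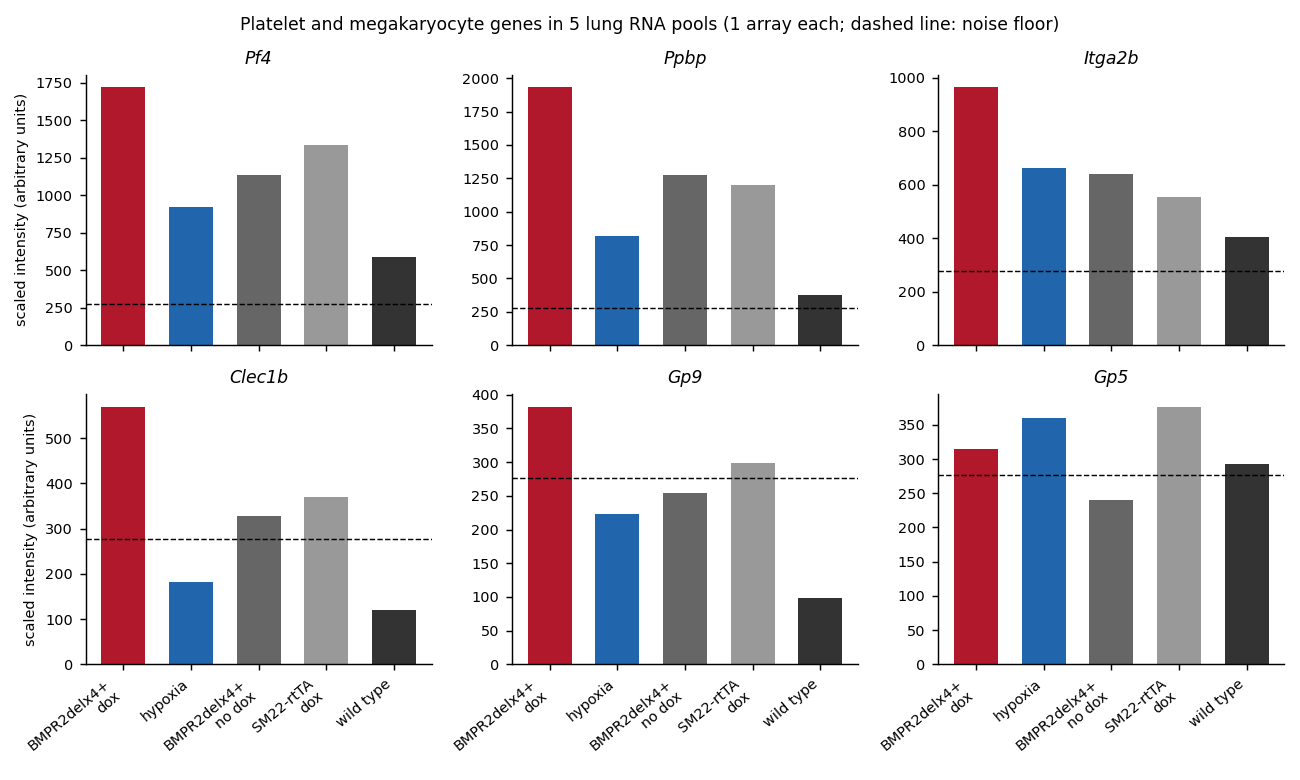
Scaled intensity (bars, linear axis from 0) of the 6 genes in the 5 pools, 1 array each, with the noise floor of 276 as a dashed line. The induced pool is the tallest bar for each gene except Gp5, and the wild-type bar is the lowest for Pf4, Ppbp and Itga2b and lies under the floor for Clec1b and Gp9.

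Induced BMPR2delx4+ mice had uninduced mice of their own genotype as control, a comparison that holds the transgene product, doxycycline and the raised pressure together. Clec1b was 1.74-fold, Pf4 1.52-fold, Ppbp 1.51-fold and Itga2b 1.51-fold higher in the induced pool. These 4 of 6 genes were called higher, where 3.26% of measured genes were, and none was called lower, where 1.32% were. Ratios as high were found in 2.71% of measured genes for Clec1b and in between 4.80% and 4.97% for the other 3. Gp9 was at least 1.39-fold higher and Gp5 at least 1.14-fold, both against the floor, so that all 6 ratios lay above 0, as did 44.9% over all measured genes. The median log2 ratio of the 6 genes was 0.59, beside 0.00 over all measured genes. Pf4, Ppbp and Itga2b lay close to the 1.5-fold limit: with the intensities as deposited, after quantile normalization, or with a pseudocount in place of the floor, Clec1b alone was called. With the floor at the 70th percentile the reverse held: Clec1b had a log2 ratio of 0.038 and was not called, while Pf4, Ppbp and Itga2b were. With the floor at the 30th percentile 5 of the 6 were called. At 2-fold, 0 of the 6 genes were called.

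SM22-rtTA mice also received doxycycline and so give the induced pool a control with the same drug. Against them Itga2b was 1.74-fold, Ppbp 1.61-fold and Clec1b 1.54-fold higher in the induced pool, and these 3 of 6 were called, where 6.71% of measured genes were called higher and 3.62% lower. The Clec1b call was lost with the intensities as deposited, after quantile normalization, with a pseudocount and with the floor at the 70th percentile. Pf4 and Gp9 were each 1.28-fold higher and not called. Gp5 ran the other way, with a log2 ratio of -0.26. The median log2 ratio was 0.49, beside 0.012 over all measured genes. This comparison and the one with the uninduced pool share the induced array, so the second does not repeat the first independently.

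Between the transgenic controls themselves, SM22-rtTA over uninduced, none of the 6 genes was called, where 3.00% of measured genes were 1.5-fold higher and 4.51% lower. The log2 ratios of the genes above the floor in both pools were 0.24 for Pf4, 0.18 for Clec1b, -0.087 for Ppbp and -0.21 for Itga2b. Both directions occurred, and each of these differences was smaller than that gene's ratio of the induced pool to either control. Gp5 was at least 1.36-fold higher in SM22-rtTA, against the floor, a log2 ratio of at least 0.45. For Gp5 this difference was larger in size than the ratio of the induced pool to either control.

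Hypoxic mice were compared with wild-type mice of the same strain and age. Ppbp was 2.15-fold, Itga2b 1.64-fold and Pf4 1.57-fold higher in the hypoxic pool. Itga2b was the 1 gene of 6 called higher, where 4.19% of measured genes were called higher and 4.82% lower. Pf4 and Ppbp passed the fold but lay below the transgenic controls in hypoxia. With the intensities as deposited Itga2b was not called either. Gp5 was 1.23-fold higher, and no ratio could be formed for Clec1b and Gp9, which were within the floor in both pools. The median log2 ratio was 0.68 over the 4 genes with a ratio, or 0.48 with Clec1b and Gp9 counted as 0, beside 0.034 over all measured genes. Endothelial markers had a median of 0.40 in the same comparison and kidney tubule markers of -3.05.

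Set against the mean of the transgenic controls, the hypoxic pool had lower chemokine levels. Ppbp was at 0.658 and Pf4 at 0.748 of the control level, and Clec1b, within the floor in hypoxia, at 0.795 or less. Ppbp was the 1 gene of 6 called lower, where 4.16% of measured genes were, and none was called higher, where 12.1% were. Itga2b had a log2 ratio of 0.15, or -0.017 with the intensities as deposited, and Gp5 one of at least 0.16. The median over the 6 genes was -0.19 with values held at the floor, and -0.36 without a floor, beside 0.00 over all measured genes. With the intensities as deposited, the median over all measured genes was -0.12, Pf4 and Ppbp were both called lower, and the shares called of all measured genes were 8.69% higher and 9.99% lower. With a pseudocount in place of the floor, Clec1b was called lower and Ppbp was not. The direction of the hypoxic pool thus differed with its control: Pf4 and Ppbp were above wild type and below both transgenic pools.

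Wild type was also set against the mean of the transgenic controls, a comparison added after the data were seen, and it gave the largest difference of the 6 comparisons for Ppbp and for Pf4. Ppbp was at 0.305 of the control level in wild type, and only 8 of 8590 measured genes had a ratio as low or lower, itself included. Pf4 was at 0.476. Both were called lower, where 10.1% of measured genes were, and none higher, where 16.8% were. Itga2b was at 0.678 and not called. Clec1b was at 0.795 or less. The 6 genes had a median log2 ratio of -0.45 with values held at the floor and of -1.28 without a floor. Endothelial markers had a median of -0.40. Kidney tubule markers had a median of 3.23 and fat markers of 1.04, and their part in the low platelet gene levels of the wild-type pool was not tested. The hypoxic array stands in both comparisons of hypoxia, and wild type and the transgenic controls each recur as well, so the values are only set side by side.

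**Figure D2:**
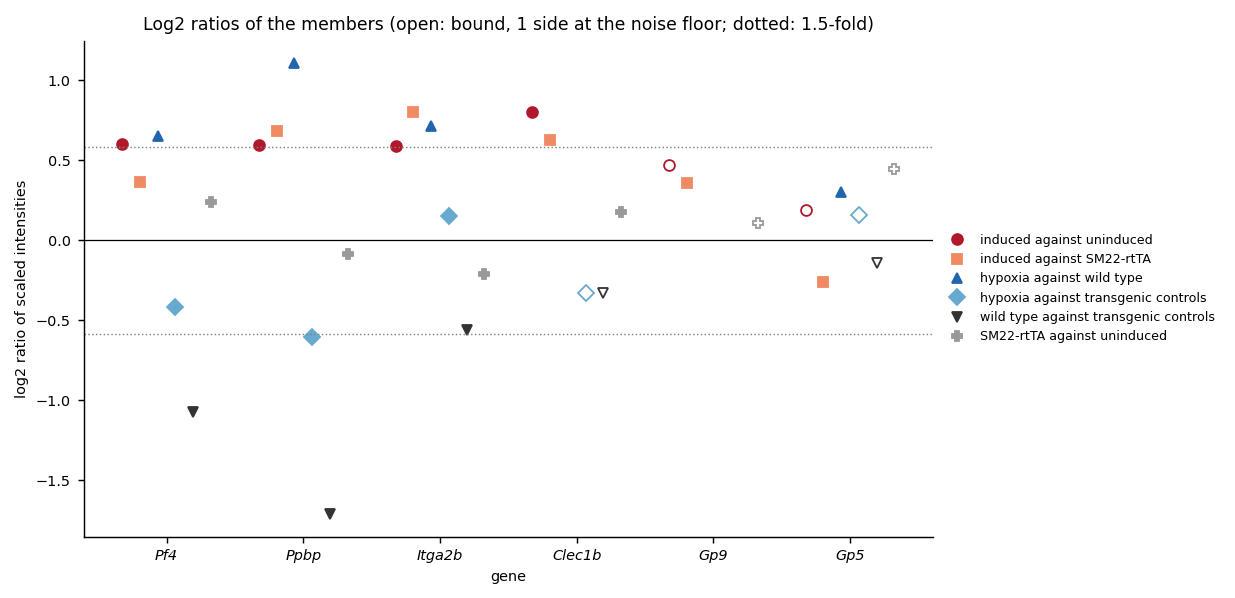
Log2 ratio of scaled intensities (vertical axis) for the 6 genes in 6 comparisons, with 1.5-fold as dotted lines. Open symbols are bounds with a side at the noise floor, and genes with both sides there have no symbol; the lowest symbol is Ppbp in wild type, at -1.71.

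Other genes of platelets were described from lists sorted by role, many of whose members are expressed by other lung cells too. Of 24 further platelet receptors and adhesion molecules, 20 had a probe set and 9 were measured. None was called in the induced pool against the uninduced pool, where 3.26% of measured genes were called higher and 1.32% lower. No call among 9 genes is near these shares. Against SM22-rtTA, the fatty acid receptor Cd36, also expressed by capillary endothelium and macrophages, was lower, at 2868 in the induced pool against 5256. Cd36 was the 1 gene of the 9 called lower there, where 3.62% of measured genes were. Pear1, a platelet and endothelial receptor, was higher in hypoxia than in the transgenic controls, at 822 against 481 in the uninduced and 519 in the SM22-rtTA pool. Pear1 was the 1 gene of the 9 called higher there, where 12.1% of measured genes were. It was also at 791 in the induced pool and at 1257 in wild type, so it was not called in the induced pool. The list medians were -0.14 for the induced against the uninduced pool and 0.17 for hypoxia against wild type.

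Some genes that define the lineage in other work were within the floor. Itgb3, the partner of Itga2b in the fibrinogen receptor, was at 70.4 in the induced pool and 81.8 in hypoxia, against 54.6, 199 and 54.8 in the uninduced, SM22-rtTA and wild-type pools. Itgb3, the receptors Treml1, P2ry12 and Selp, and the transcription factors Gata1, Nfe2 and Gfi1b were within the floor in all 5 pools, with scaled intensities between 54.6 and 275. These 7 genes were chosen after their values were seen. Other listed genes went the other way: 13 of 17 transcription factors and 9 of 20 receptors with a probe set were measured. Gata2, Cd9 and Vwf were above the floor in every pool. Of the genes followed from the start, Pf4, Ppbp and Itga2b were above the floor in all pools, and Gp9 and Gp5 lay near it.

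Gp1bb, which encodes the beta chain of GPIb and pairs with the product of Gp9, had 2 probe sets that differed. Probe set 1422977_at was at 339 in the induced pool and 91.5 in hypoxia, against 211 in the uninduced, 228 in the SM22-rtTA and 62.2 in the wild-type pool. Only the induced pool was above the floor, by which it was at least 1.23-fold higher. Probe set 1456427_at lay within the floor in all pools, between 132 and 245, and it stood for the gene because its mean log2 value was higher. By mean deposited intensity, 191.7 for 1422977_at against 181.0 for 1456427_at, the choice would turn, so the rule decides whether Gp1bb counts as measured. The disagreement was noticed after the values were seen.

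Granule genes were measured in 17 of 23 cases. Against the uninduced pool none was called in the induced pool, where 3.26% of measured genes were called higher and 1.32% lower. The median log2 ratio was -0.17, with 11 of 17 below 0, where 41.5% of all measured genes were. The growth factor gene Tgfb1 was the 1 gene of 17 called lower against SM22-rtTA, where 3.62% of measured genes were. Tgfb1 was at 594 in the induced pool against 1249. It was at 703 in the uninduced and 623 in the wild-type pool, and SM22-rtTA was itself called higher than uninduced, 1.78-fold. The metalloproteinase inhibitor gene Timp3 was the 1 gene of 17 called lower in hypoxia against wild type, where 4.82% of measured genes were. Timp3 was at 4216 in hypoxia against 6525 in wild type. It was at 4310 in the uninduced and 4984 in the SM22-rtTA pool, so that wild type was its highest pool. Of the eicosanoid enzymes, 3 of 6 were measured. The phospholipase gene Pla2g4a was the 1 called higher in hypoxia, at 451 against 288 in wild type, where 4.19% of measured genes were. Pf4 and Ppbp, products of the same granules, were called higher in the induced against the uninduced pool, where no gene of this list was. No call among 17 genes is near the share of 3.26% over all measured genes. The Pf4 and Ppbp calls lay close to the 1.5-fold limit. They were lost with the intensities as deposited, after quantile normalization and with a pseudocount. The difference between these 2 genes and the list was not tested.

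Among 25 measured genes of platelet signalling and shape, 4 were called higher in the induced against the uninduced pool, and 0 lower. Over all measured genes 3.26% were called higher and 1.32% lower, and the list median was 0.00. Fermt3 encodes kindlin-3, which activates integrins in platelets and leukocytes. It was at 905 in the induced pool and 524 in hypoxia, against 571, 692 and 143 in the uninduced, SM22-rtTA and wild-type pools, and all 3 of its probe sets had the same direction or no difference. The others were the adaptor gene Lat, at 535 in the induced against 203 in the uninduced pool, and the kinase gene Prkcq, at 431 against 255. The tubulin gene Tuba8 was at 435 in the induced against 196 in the uninduced pool. For each the uninduced pool was within the floor, and Tuba8 was above the floor in the induced pool only. Skeletal muscle markers were called higher in 19 of 19 in this comparison, and their part in these levels was not tested.

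Lat and Prkcq are also genes of T cells. T cell markers were called higher in 5 of 9 in the same comparison, where 3.26% of measured genes were. Rag1, which recombines antigen receptor genes in thymocytes, was at 788 in the induced and 241 in the uninduced pool, and the co-receptor gene Cd4 at 518 in the induced and 336 in the uninduced pool. The markers summed to 4783 in the induced pool and 4127 in hypoxia, and to between 2291 and 2997 in the normal-pressure pools. Their part in the platelet gene levels was not tested.

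In hypoxia against the transgenic controls, the actin regulator gene Plek, abundant in platelets and leukocytes, was lower, at 379 against 652 in uninduced and 624 in SM22-rtTA mice. The kinase gene Syk was lower too, at 451 against 664 in uninduced and 694 in SM22-rtTA mice. Rasgrp2, which activates the integrin switch Rap1 in platelets, was higher, at 844 against 489 in uninduced and 334 in SM22-rtTA mice. The kinase gene Btk was at 647 in hypoxia against 316 in uninduced and 336 in SM22-rtTA mice. The secretion gene Stxbp2 was at 2231 in hypoxia against 1376 in uninduced and 1297 in SM22-rtTA mice. For Rasgrp2 and Stxbp2, 1 of 3 probe sets had the opposite sign. Of the 25 genes 3 were thus called higher and 2 lower, where 12.1% and 4.16% of measured genes were. Wild type differed from the transgenic controls in the same directions. Rasgrp2 was at 752, Btk at 502 and Stxbp2 at 2169 in wild type, each called higher there. Plek, within the floor at 176, and Syk, at 325, were called lower there. Hypoxia was 1.12-fold above wild type for Rasgrp2, 1.29-fold for Btk and 1.03-fold for Stxbp2. Gng11, a G protein gamma subunit gene, was the 1 gene of the 25 called higher in hypoxia than in wild type, at 3605 against 2278. Over all measured genes 4.19% were called higher in that comparison. The median log2 ratio of the list was 0.22, beside 0.034 over all measured genes, and Fermt3 (at least 1.90-fold) and Pdlim1 (1.76-fold) had larger ratios without a call. For 16 of the 25 genes wild type was lowest or level with the lowest at the floor, against 35.3% of measured genes. Rgs18, a regulator of G protein signalling abundant in platelets, was chosen after its values were seen, at 380 in the induced pool and 155 in hypoxia, against 358, 407 and 128 in the uninduced, SM22-rtTA and wild-type pools.

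**Figure D3:**
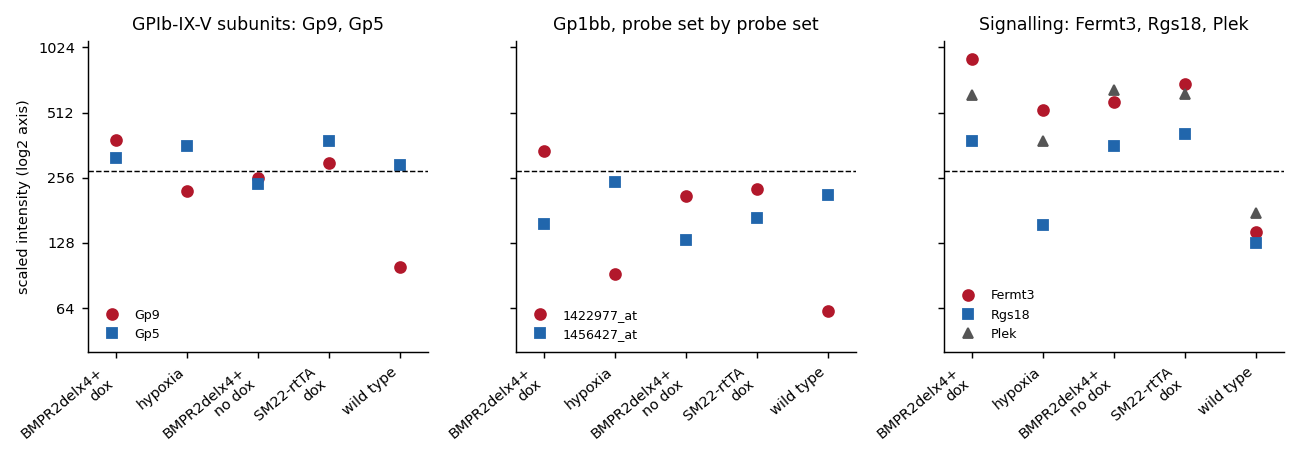
Scaled intensity on a log2 axis in the 5 pools for Gp9 and Gp5 (left), for each probe set of Gp1bb (middle) and for Fermt3, Rgs18 and Plek (right), with the noise floor of 276 dashed. Probe set 1422977_at of Gp1bb, Gp9 and Fermt3 were highest in the induced pool, while Gp5 and probe set 1456427_at were not.

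Transcription factors of megakaryocytes showed no call in the induced pool among 13 measured genes. Over all measured genes 3.26% were called higher and 1.32% lower against the uninduced pool, and 6.71% and 3.62% against SM22-rtTA. No call among 13 genes is near these shares. The list medians were -0.068 against the uninduced and -0.023 against the SM22-rtTA pool. In hypoxia against wild type, 2 of the 13 were called higher, where 4.19% of measured genes were, with a list median of 0.49. These were the ETS factor gene Fli1 and Mafk. Fli1 was at 482 in hypoxia against 270, within the floor, in wild type. Mafk was at 1168 in hypoxia against 772 in wild type. Wild type was lowest or level with the lowest at the floor for 12 of the 13, against 35.3% of measured genes. Against the transgenic controls Gata2 was lower in hypoxia, at 1772 against 2907 in the uninduced and 2901 in the SM22-rtTA pool. Runx1 was higher, at 542 against 291 in the uninduced and 267 in the SM22-rtTA pool. Of the 13 genes 1 was thus called higher and 1 lower, where 12.1% and 4.16% of measured genes were. For Gata2 1 of 2 probe sets, and for Runx1 2 of 5, had the opposite sign. In wild type Gata2 was at 1516 and Runx1 at 737, in the same directions and farther from these controls than hypoxia. Both were called there too, where 16.8% of measured genes were called higher and 10.1% lower.

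Genes for ligands and counter-receptors of platelets were measured in 8 of 15 cases and none was called in the induced pool against either control. Over all measured genes 3.26% were called higher and 1.32% lower against the uninduced pool, and 6.71% and 3.62% against SM22-rtTA. No call among 8 genes is near these shares. Pdpn encodes the ligand of the Clec1b product. It was at 2186 in the induced pool and 2576 in hypoxia, against 2419 in the uninduced, 2235 in the SM22-rtTA and 1413 in the wild-type pool. Pdpn was the 1 gene of the 8 called higher in hypoxia against wild type, where 4.19% of measured genes were. Of 9 other CXC chemokine genes 3 were measured. Of these 1, Cxcl13, was called higher in the induced pool against each control, where the shares were 3.26% and 6.71%. Cxcl2, which attracts neutrophils, was within the floor in the induced pool, as in hypoxia, SM22-rtTA and wild type, against 1176 in the uninduced pool, so that the induced pool was at 0.235 of the uninduced level or less. Cxcl13, which attracts B cells, was higher in the induced pool, at 498 against 305 in the uninduced and 321 in the SM22-rtTA pool, while the lung chemokine gene Cxcl15 was at 4843 in the induced pool against 6701 in the uninduced and 7120 in the SM22-rtTA pool.

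Blood and vessel markers were set beside the platelet genes. Neutrophil markers summed to 6140 in the induced pool and 6989 in hypoxia, against 18028 in the uninduced, 12234 in the SM22-rtTA and 3864 in the wild-type pool. For 7 of the 12 neutrophil markers wild type was lowest or level with the lowest at the floor, against 35.3% of measured genes. For 2 it was the highest pool, against 24.9%. In wild type 7 of the 12 lay within the floor. The alarmin gene S100a8 was at 2174 in the induced pool and 1720 in hypoxia, against 7120, 4672 and 222 in the uninduced, SM22-rtTA and wild-type pools. Its partner S100a9 was at 1675 in the induced pool and 1020 in hypoxia, against 6283 in the uninduced, 4095 in the SM22-rtTA and 226 in the wild-type pool. The granule genes Ltf and Ngp ran the other way in wild type, with Ltf at 922 in wild type against 411 in the uninduced and 248 in the SM22-rtTA pool, and Ngp at 730 in wild type against 420 in the uninduced and 308 in the SM22-rtTA pool. Erythroid markers summed to 8328 in the induced pool and 10603 in hypoxia and to between 8259 and 10561 in the normal-pressure pools. Alas2, the first enzyme of haem synthesis in red cells, was at 1522 in the induced pool and 1654 in hypoxia, against 1491 in the uninduced, 2638 in the SM22-rtTA and 1416 in the wild-type pool. Endothelial markers summed to 42452 in the induced pool and 51786 in hypoxia, against 56186 in the uninduced, 55692 in the SM22-rtTA and 40236 in the wild-type pool. Car2, a carbonic anhydrase gene of red cells and other tissues, was at 1070 in the induced pool and 1755 in hypoxia, against 1546 in the uninduced, 2402 in the SM22-rtTA and 3245 in the wild-type pool, and was called lower in the induced pool against SM22-rtTA. No erythroid or endothelial gene was called higher in the induced against the uninduced pool, where 3.26% of measured genes were. Of 19 endothelial genes 3 were called lower, where 1.32% of measured genes were.

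In the same comparison, B cell markers gave 0 higher and 1 lower of 11, with a sum of 6280 in the induced and 6259 in the uninduced pool. Beside this and the counts that follow, 3.26% of all measured genes were called higher and 1.32% lower. Macrophage and monocyte markers gave 0 higher and 1 lower of 11, with a sum of 11758 in the induced and 15975 in the uninduced pool. Mast cell and basophil markers gave 0 of 4 either way, with 2262 in the induced and 3098 in the uninduced pool. Haematopoietic progenitor genes gave 1 higher and 0 lower of 8. That gene was Myb, a regulator of progenitors and thymocytes, at 785 in the induced and 481 in the uninduced pool. Proliferation genes gave 1 higher and 0 lower of 6, the nucleotide reductase gene Rrm2. Fat markers gave 4 higher and 0 lower of 12, with a sum of 17023 in the induced and 7320 in the uninduced pool. The part of these cells in the platelet gene levels was not tested.

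**Figure D4:**
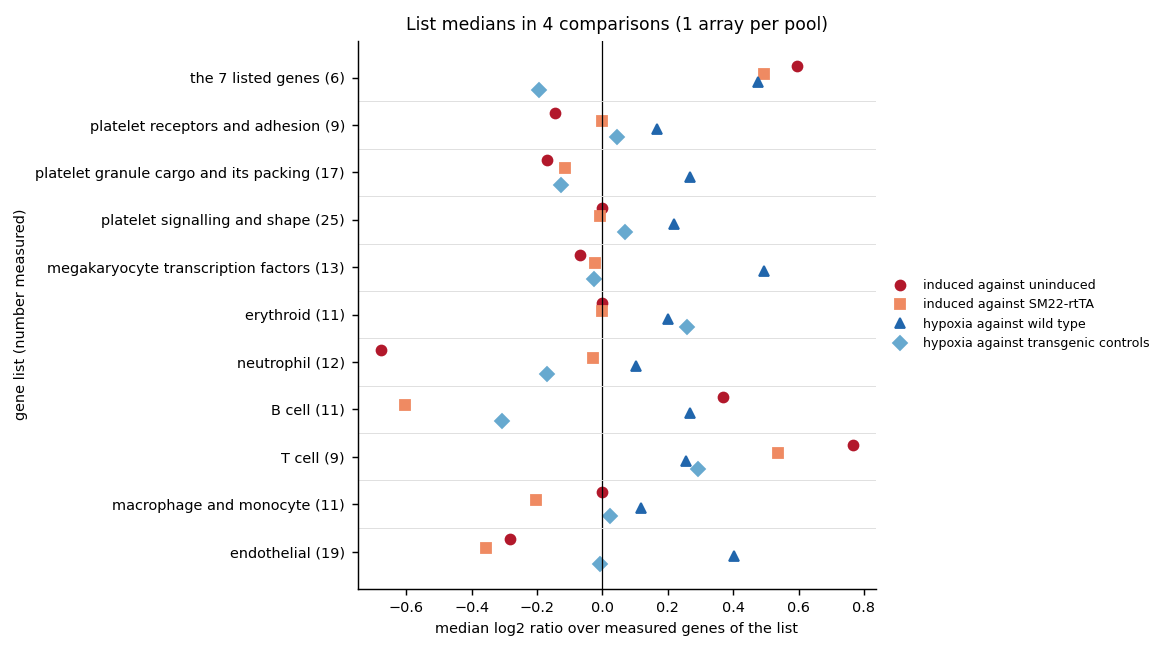
Median log2 ratio (horizontal axis) over the measured genes of each list, with their number in brackets, in 4 comparisons. The listed platelet genes lie at 0.59 and 0.49 for the induced pool, where the endothelial list lies at -0.28 and -0.36. The T cell list lies above the platelet genes in both, at 0.77 and 0.54.

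Genes with the pattern most like the platelet genes were sought by the root mean square difference of log2 values over the 5 pools, after each gene was centred on its own mean. The pattern was the mean of the 5 listed genes above the floor in at least 3 pools, and 7017 other genes were compared. The nearest were Dgkz, Zeb2, Chst1, Cryab, Tia1, Baz2b, Nup210 and Jarid2, with differences between 0.068 and 0.10, where the median over all genes compared was 0.45. Dgkz, a diacylglycerol kinase gene, was at 2518 in the induced pool and 1587 in hypoxia, against 1851, 1736 and 1032 in the uninduced, SM22-rtTA and wild-type pools. The listed genes themselves differed from their mean pattern by 0.13 for Pf4, 0.17 for Itga2b, 0.20 for Clec1b, 0.40 for Ppbp and 0.40 for Gp5. These 8 genes were nearer to the mean pattern than any of its own members, but they were picked for nearness among 7017 genes. Their nearness therefore does not show how alike the listed genes are. The closest pair among the 6 listed genes were Clec1b and Gp9, at 0.21, and the farthest Ppbp and Gp5, at 0.79, with values within the floor counted at it.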

How the data were processed

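Each of 5 pools of whole lung RNA was measured on 1 array with 22626 probe sets, and the authors deposited an intensity on a linear scale for each. How the authors summarised, background-corrected and scaled the arrays is not given in the sources used here. No deposited intensity lay under 50, and between 9.85% and 12.5% of each array sat at that limit.

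From these, log2 intensities were shifted so that the 9046 probe sets brighter than the 50th percentile on all arrays had a common median (shifts of -0.11 to 0.13), and values under the 50th percentile of all scaled values were raised to it. Single-gene probe sets (20380) took their gene from the platform annotation, and 20351 got a current symbol through the gene ID (RefSeq, GRCm38.p6). A further 691 probe sets listed several genes and 1555 none. The probe set with the highest mean log2 value stood for its gene. A ratio with a side at the floor is a bound. Python 3.11.15, numpy 2.4.6 and pandas 2.3.3 were used. The calls were also run on simulated data with seeded changes of 2-fold or more. At 2-fold, no listed gene was called in the induced pool against either control, so that run does not cover the calls made there. Without replicate arrays, simulated data cannot supply the spread between animals or arrays, and the run does not show how reliable the calls are.

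The genes and lists were chosen with earlier results of these data known. Named genes were the 7 listed; from each further platelet list the called members, up to 6, or else those with the highest means; and the 8 nearest patterns. Other cell types have counts and sums, with the 2 markers of highest mean for neutrophils, T cells and red cells. Genes behind small counts, and those in plots beyond these, were chosen after their values were seen. With 1 array per pool, the number of arrays limits the precision.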

Additional observations from a re-analysis of the deposited data

How the results depend on the processing

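No paired analysis was possible because each condition has 1 array. The median log2 ratio of the 6 genes kept its direction under every alternative for the 4 comparisons of a raised-pressure pool. For SM22-rtTA against uninduced it became -0.043 with the floor at the 70th percentile, where 4 genes were measured. Counts of called genes depended on the settings. In the induced against the uninduced pool the 4 higher calls became 1 with values as deposited, 1 after quantile normalization, 1 with a pseudocount of 50 and 0 at 2-fold, and 3 and 5 with the floor at the 70th and 30th percentile. Against SM22-rtTA, 3 became 0 at 2-fold, and 2, without Clec1b, with values as deposited, after quantile normalization, with the pseudocount and with the floor at the 70th percentile. In hypoxia against wild type, the 1 higher call became 0 with values as deposited, with the floor at the 70th percentile and at 2-fold. In hypoxia against the transgenic controls, the 1 lower call became 2 with values as deposited, 2 with the floor at the 30th percentile and 0 at 2-fold. For SM22-rtTA against uninduced, 0 higher became 1 with the floor at the 30th percentile. Leaving wild type out of the normal-pressure range changed no count. Neither did the gene summary by mean of probe sets or by highest mean linear intensity (the last chosen after seeing the data), since each gene has 1 probe set. Signal over background limits Gp9, Gp5 and Clec1b.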
